A study of Mus musculus with 6 samples.

Results

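Somite B was 1 of the cell clusters, called Fates, that were annotated in stembryos (gastruloids), balls of mouse embryonic stem cells that in culture grow into an elongated structure with the tissues of a trunk. Its cells were taken by their deposited Fate annotation, which gave 2403 of 26968 cells. All libraries were 10x Genomics single-cell RNA-seq of wt stembryos from mES cells of the 129/SVEV line that had received a pulse of the Wnt agonist Chiron, with no treated or mutant group. Whole stembryos gave 2 libraries at 96 h after aggregation and 2 at 120 h, and a further set cut at 120 h gave 1 library of its anterior and 1 of its posterior part. Each library pooled many stembryos, the stembryos that had not elongated at 120 h were discarded, and no stembryo can be told from another within a library.

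Somites are the segments that bud from the anterior end of the presomitic mesoderm (PSM). Their ventral part becomes the sclerotome, the source of vertebrae, ribs and, at its border, tendon progenitors, and is marked by Pax1 and Pax9. Their dorsal part stays epithelial as the dermomyotome, the source of skeletal muscle and dermis, and is marked by Pax3, Pax7 and Dmrt2. The position of a somite along the trunk is encoded by Hox genes, whose later paralog groups are expressed more posteriorly.

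Nearly all Somite B cells came from 3 libraries at 120 h, and they were most frequent in the anterior part. They made up 1757 of 3944 cells of the anterior part (44.5%, exact 95% binomial interval 43.0 to 46.1). In the whole stembryos they made up 517 of 4867 cells in replicate 1 (10.6%, 9.77 to 11.5) and 127 of 2683 cells in replicate 2 (4.73%, 3.96 to 5.61). The posterior part held 1 such cell among 7887, and the 96 h libraries held 0 of 4938, which allows a share of up to 0.0608% as the limit of 3 cells (0.0747% as the upper end of the exact interval), and 1 of 2649. The 2 whole libraries thus differed beyond counting error in Somite B, while their shares of the other somite cluster, Somite A, were 24.1% and 24.0%. Of all cells in the 2 somite clusters, Somite B was 48.3% in the anterior part, 30.6% in whole replicate 1 and 16.5% in whole replicate 2.

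**Figure D1:**
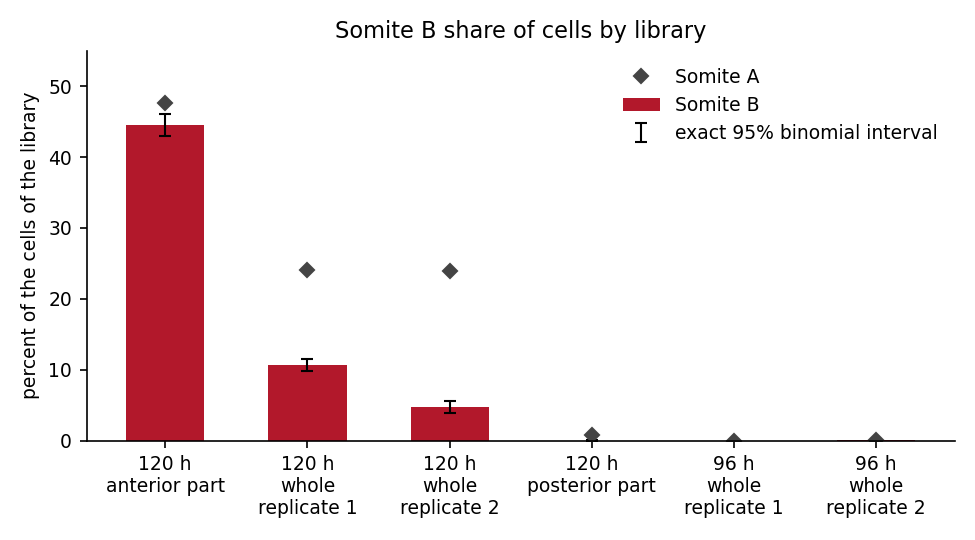
Percent of the cells of each library (y axis) that were annotated as Somite B, with the exact 95% binomial interval, and as Somite A (diamonds), for the 6 libraries on the x axis. Somite B fell from 44.5% in the anterior part to 10.6% and 4.73% in the whole stembryos and was nearly absent from the other 3 libraries.

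The 3 libraries with Somite B cells came from 3 batches (the anterior part from batch 2, whole replicate 1 from batch 1 and whole replicate 2 from batch 4) and from 2 versions of the 10x chemistry (V3 for the first 2, V3.1 for the last), so a difference between them cannot be told apart from batch. Differences between clusters were therefore taken within a library. The summed unique molecular identifiers (UMIs, counted RNA molecules) of Somite B were 23137117, 8590854 and 1203239, with a median of 11996, 16202 and 8435 UMIs per cell in the same order. The mitochondrial share (medians 2.36%, 2.54% and 2.25%) and the share of cells called in G2M (48.3%, 48.5% and 47.2%) were close to those of Somite A of the same library (2.25%, 2.58% and 2.19%, and 42.9%, 42.9% and 44.8%). No cell barcode was shared between libraries within Somite B, and 20 of its barcodes also occurred in another library in some Fate. Levels are given as CPM, the count of a gene per 1000000 UMIs of the summed cells, in the order anterior part, whole replicate 1, whole replicate 2, and differences on the log2(CPM + 1) scale as mean ± SD over these 3 libraries. A difference was counted when it reached 2-fold in the same direction in all 3. Since the clusters had been built from these same counts, no test between clusters was run and these values are a description.

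The 6 genes given as markers of Somite B were higher in it than in all other cells of the same library, which the clustering on these counts can itself give, but not all of them were higher than in Somite A. All 6 were at least 2-fold higher than in all other cells in every library, where 57 of 9701 genes were (0.588%). Against Somite A, 3 of 6 reached 2-fold in every library, where 31 of 9611 genes were that much higher (0.323%) and 13 lower (0.135%). With TMM scaling, which aligns the bulk of the genes, 23 genes were higher and 16 lower, and Dmrt2, Enox1, Flrt2, Gm42675, Igfbp5, Kctd12 and Tnfaip6 were among the genes that no longer reached 2-fold in every library. Without whole replicate 1, 50 were higher and 21 lower, and without the anterior part 20 were lower. Fap, a cell-surface serine protease of mesenchymal cells, stood at 76.1, 45.7 and 64.0 CPM in Somite B and at 19.1, 13.5 and 15.7 CPM in Somite A, a difference of 1.86 ± 0.15 (SD, n = 3). Pcolce, which enhances the enzyme that trims procollagen, stood at 56.6, 16.6 and 31.6 CPM against 12.9, 5.03 and 5.87 (1.95 ± 0.36). Neither gene's values overlapped between the clusters. Meox2, a homeobox factor of the somites, had the steadiest difference of the 6, at 79.5, 93.2 and 75.6 CPM against 32.2, 37.0 and 27.8 (1.33 ± 0.07).

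The other 3 markers fell short of this in 1 library each. Fmod encodes fibromodulin, a small proteoglycan of tendon that binds collagen, and stood at 34.3, 20.6 and 18.3 CPM against 17.1, 9.48 and 7.78 (1.05 ± 0.08), which was 0.97 on the log2 scale in the anterior part. Spon1, a secreted matrix protein, stood at 46.3, 8.03 and 36.6 CPM against 11.2, 4.03 and 7.60, and was short of 2-fold in whole replicate 1. Pax1 was higher in Somite B of the anterior part and whole replicate 2, at 93.6 and 68.1 CPM against 38.1 and 23.5, but lower in whole replicate 1, at 21.3 CPM against 36.1. Whole replicate 1 was thus the low library for Fap, Pcolce, Spon1 and Pax1, and the high one for Meox2.

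**Figure D2:**
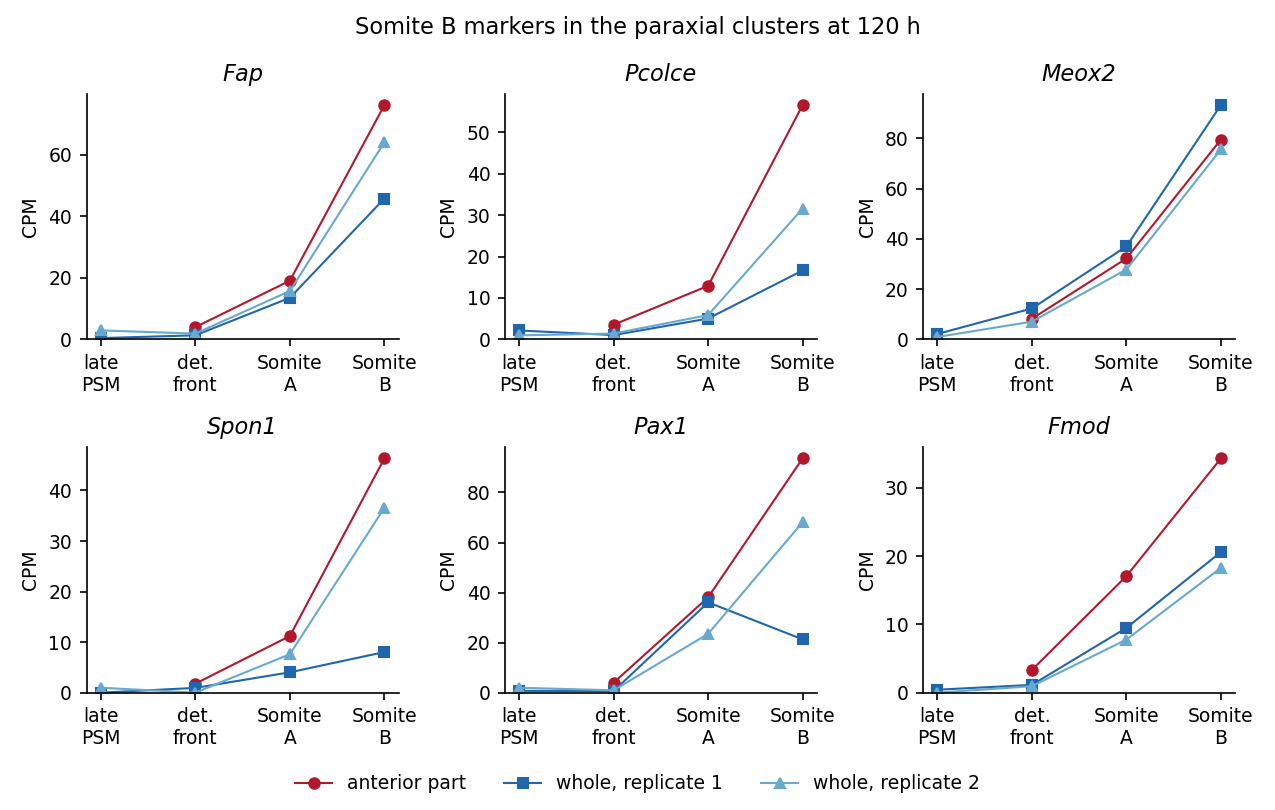
Level in CPM (y axis) of the 6 markers in the sums of late PSM, determination front, Somite A and Somite B cells (x axis) of the 3 libraries; the anterior part had too few late PSM cells for a sum. All lines rise from Somite A to Somite B except Pax1 in whole replicate 1, which goes from 36.1 to 21.3 CPM.

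Along the paraxial clusters at 120 h these genes were low before the somite stage. In the determination front, where PSM cells commit to segments, Fap stood at 3.99, 1.33 and 1.88 CPM, and Pax1 at 3.99, 0.663 and 0.942 CPM. The sum of the 6 markers went from 24.8, 17.4 and 12.2 CPM in the determination front to 131, 105 and 88.3 CPM in Somite A and 386, 206 and 294 CPM in Somite B. Somite A of the posterior part, which was only 68 cells, had 22.5 CPM. Over 30 sums of a Fate in a library, the genes whose level ranked most like this sum were H2afy2 (Spearman's rho 0.93), Depdc7 (0.93), Cxcl12 (0.92), Pax3 (0.91), Bmp3 (0.91), Col26a1 (0.90), Eya1 (0.90), 2610016A17Rik (0.90), Ddah2 (0.89) and Zfp68 (0.89), out of 9619 genes. These sums share libraries and depth, and the ranking is mostly one of somite clusters against all others: Col26a1 and Eya1 differed between Somite B and Somite A by only -0.19 ± 0.27 and -0.14 ± 0.33.

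In the mm10 genome (GRCm38, GENCODE M21) Fap lies at chr2:62500943-62574075 on the minus strand, Pcolce at chr5:137605103-137613784 (minus), Meox2 at chr12:37108540-37179534 (plus), Spon1 at chr7:113765998-114043370 (plus), Pax1 at chr2:147361925-147393295 (plus) and Fmod at chr1:134037254-134048277 (plus). The Pcolce gene model overlaps Fbxo24 on the same strand, and that of Meox2 overlaps Gm48617. Of the genes described below, Ntm overlaps Gm15521 and Flrt2 overlaps Gm48014 and Gm48015 on the same strand. The promoters of 3 genes are shown because their genes carry the main contrasts described here: Meox2 for the steady difference from Somite A, and Pax1 and Dmrt2, a sclerotome and a dermomyotome factor, for their detection in different shares of the cells. Each run is the 150 bases before the RefSeq start, read 5′ to 3′ on the gene's strand, at chr12:37108390-37108539, chr2:147364844-147364993 and chr19:25672261-25672410 of GRCm38.p6. The Pax1 window lies inside the longer GENCODE gene model, before the RefSeq start. Overlap of the 3 windows with annotated exons was not examined. Capitals mark a match to TATAAA on either strand.
Meox2: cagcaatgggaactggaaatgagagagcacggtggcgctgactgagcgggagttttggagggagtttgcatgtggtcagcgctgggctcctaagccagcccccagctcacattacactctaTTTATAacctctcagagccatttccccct
Pax1: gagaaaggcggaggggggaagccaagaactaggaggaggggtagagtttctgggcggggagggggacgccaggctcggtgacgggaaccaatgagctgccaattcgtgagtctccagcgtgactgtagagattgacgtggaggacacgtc
Dmrt2: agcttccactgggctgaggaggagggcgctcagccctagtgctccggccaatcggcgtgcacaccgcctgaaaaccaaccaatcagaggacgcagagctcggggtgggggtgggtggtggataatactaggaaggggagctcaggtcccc
The 3 windows held 54.7%, 60.7% and 63.3% G and C, and only the Meox2 window held TATAAA, as its reverse complement. A TATA box (TATAAA), an E-box (CAGCTG) and a homeodomain core (TAATTA) were searched on both strands of the 250 bases before each start. Among 26 promoters of 22 of the 31 genes that were higher in Somite B than in Somite A, TATAAA was in 2 (7.69%, against 12.4% of all 32851 promoters), CAGCTG in 4 (15.4% against 13%) and TAATTA in 1 (3.85% against 4.84%). The members with CAGCTG were Mir100hg, Ntn5, Pcolce and Sh3gl3.

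Beyond the markers, the genes most raised over Somite A included dermomyotome factors, matrix regulators and cell-surface proteins. Pax7, a dermomyotome and muscle progenitor factor, had the largest mean rise among genes of at least 20 CPM in Somite B, at 22.3, 17.6 and 24.1 CPM against 2.76, 2.38 and 3.11 (2.57 ± 0.10). Timp3, a matrix-bound inhibitor of metalloproteinases, stood at 68.2, 61.9 and 83.9 CPM against 15.8, 11.3 and 17.1 (2.21 ± 0.16). In both genes the lowest Somite B library lay above the highest Somite A library. The same held for Ntm, a cell adhesion molecule (59.2, 64.5 and 44.9 CPM against 14.6, 21.8 and 14.3), for Sema3a, a secreted guidance cue (47.9, 54.7 and 76.5 against 22.1, 17.9 and 24.0), and for Flrt2, a cell-surface protein of adhesion and FGF signalling (29.8, 17.6 and 29.1 against 7.98, 8.11 and 10.9).

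Mir100hg, the host transcript of a microRNA cluster, stood at 22.8, 22.1 and 19.1 CPM against 8.02, 5.56 and 7.43. Sec1, a fucosyltransferase gene, stood at 31.8, 20.4 and 15.8 CPM against 5.87, 2.91 and 2.42, and Ntn5, which overlaps it on the other strand, moved with it at 22.4, 10.7 and 13.3 CPM against 4.41, 0.901 and 1.56. The transcripts Gm42675 and Gm42676, also among the 31, lie inside Sema3a on its strand, so their counts and those of Sema3a are not separate. The other higher genes had differences from 1.09 to 2.71 and included Col14a1, a collagen that associates with fibrils, Tnfaip6, which binds hyaluronan, and Cp, the copper carrier ceruloplasmin.

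**Figure D3:**
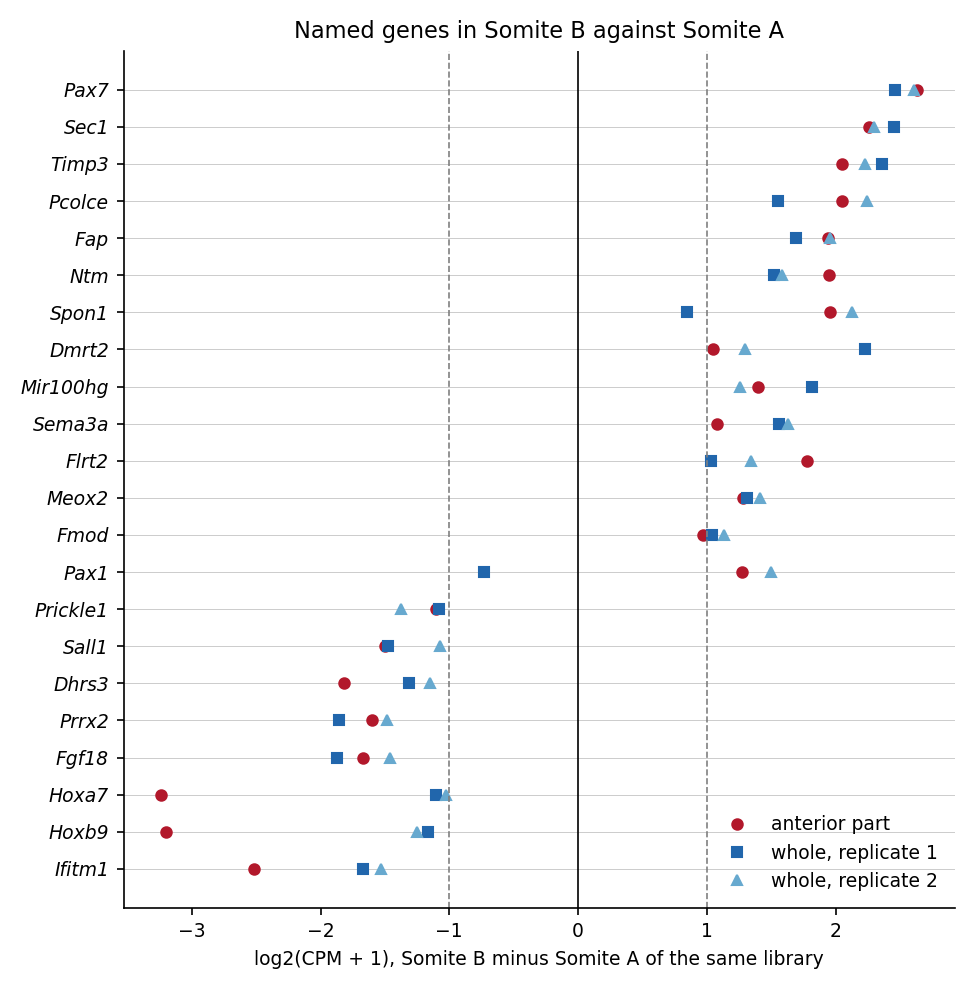
Difference in log2(CPM + 1) between Somite B and Somite A of the same library (x axis) for the 6 markers and the other genes described (y axis), with 1 point per library and dashed lines at 2-fold. Pax7 lies near 2.57 in all 3 libraries, Pax1 is split between 1.28, -0.73 and 1.5, and Hoxb9 and Hoxa7 are lowest in the anterior part.

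A total of 16 of 9682 genes (0.165%) were at least 2-fold above every other Fate with 50 or more cells in each of the 3 libraries. In the anterior part these other Fates were the determination front and Somite A alone. The whole libraries added late PSM, NMPs C (neuromesodermal progenitors) and spinal cord A and B. Endoderm, early PSM and NMPs A and B did not enter the comparison. Without whole replicate 1 there were 27, and with TMM scaling 10. In the order of this gap they included Pcolce, Fap, Timp3, Ntm, Nav3, Mir100hg, Filip1l, Chst1, Dmrt2, Flrt2, Meox2, Atl1, Igfbp5 and Kctd12. Pcolce exceeded the next Fate by 2.05, 1.55 and 2.24 on the log2 scale, and Igfbp5 by 1.04, 1.11 and 1.12. The most abundant of them was Igfbp5, a secreted protein that binds insulin-like growth factors, at 1170, 979 and 1716 CPM against 567, 452 and 787 in Somite A. With TMM scaling Dmrt2, Flrt2, Igfbp5 and Kctd12 stayed above Somite A in every library but fell short of 2-fold in at least 1.

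The genes that were lower than in Somite A included a membrane protein, homeobox genes and a secreted ligand. Ifitm1, an interferon-induced membrane protein of early mesoderm, stood at 59.9, 89.4 and 94.7 CPM against 347, 287 and 275 (-1.91 ± 0.53). Prrx2, a homeobox gene of mesenchyme, stood at 58.4, 43.5 and 63.2 CPM against 179, 160 and 179 (-1.65 ± 0.19). The ligand gene Fgf18 stood at 8.99, 5.01 and 9.14 CPM against 30.8, 21 and 27.0 (-1.67 ± 0.21). None of these overlapped between the clusters. Dhrs3, which reduces retinal and so limits retinoic acid, stood at 12.9, 12.5 and 14.1 CPM against 48.0, 32.4 and 32.5, the zinc finger gene Sall1 at 12.1, 13 and 25.8 against 35.9, 38.0 and 55.3, and the planar polarity gene Prickle1 at 7.13, 7.45 and 9.97 against 16.5, 16.8 and 27.5. The remaining genes were Hoxb9 and Hoxa7, described with the Hox genes, and Twist2, Frzb, Fzd4, Mycn and Ak1.

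Against all other cells of the library, 39 genes were at least 2-fold lower (0.402%), among them Sox2 and Cdx2, factors of neural and posterior progenitors, which stood at 0.389, 3.49 and 15.8 and at 0.519, 5.94 and 12.5 CPM in Somite B. Among the other cells they stood at 5.25, 93.0 and 167 and at 3.77, 143 and 115 CPM. The make-up of the other cells differed: Somite A was 86.0% of them in the anterior part and 27.0% and 25.2% in the whole stembryos. The genes that were higher included Heyl, a Notch target (35.8, 21.9 and 40.7 CPM against 14.9, 6.64 and 3.94), Col1a2 (16.9, 15.5 and 15.8 against 5.00, 1.76 and 2.32) and Itga9, an integrin subunit (58.7, 49.9 and 83.1 against 23.7, 11.4 and 11.2), the last chosen after its values were seen. Without the anterior part, 166 genes were higher and 190 lower.

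Genes of the general somite, of its ventral part and of its dorsal part were all measured in Somite B. Of 13 tested genes of paraxial mesoderm and somites, Meox2 was at least 2-fold higher than in Somite A, where 0.323% of all genes were. None was lower, where 0.135% of all genes were. The median difference was 0.00, against 0.06 over all 9611 genes. Tcf15, a factor for the epithelial somite, stood at 653, 808 and 729 CPM against 762, 850 and 812, and Meox1 at 488, 400 and 473 against 685, 513 and 507. Tcf15 and Meox1 were thus expressed in both clusters, at a lower level in Somite B in every library. Of the 13 genes, 4 were higher and 5 lower by some amount in every library, and with TMM scaling 2 and 7. TMM scaling lowered all differences, which took the median of all genes from 0.06 to -0.05, and the share of genes higher in every library by any amount from 32.9% of 9611, with 12.5% lower, to 1392 higher and 2736 lower of 9578, so small differences in 1 direction carry little weight here.

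Of 7 tested sclerotome genes, 0 reached 2-fold in either direction in every library (0.323% of all genes were higher and 0.135% lower). Pax9 stood at 7.04, 5.01 and 12.5 CPM against 3.68, 8.90 and 5.01, low in whole replicate 1 as Pax1 was, and Foxc2, a forkhead factor of somites, at 76.9, 59.1 and 97.2 against 136, 125 and 155. Nkx3-2, which acts after Pax1 in cartilage formation, had 10 UMIs in all of Somite B (0.146 to 0.558 CPM, exact Poisson 95% interval) and Sox9, a cartilage factor, 3.89, 2.56 and 4.99 CPM. Scx, the tendon progenitor factor, stood at 59.0, 35.4 and 61.5 CPM against 32.6, 33.7 and 28.3, whereas Tnmd, a gene of mature tendon, had 1 UMI. Nkx3-2 and Tnmd were thus at or near 0, but Fmod, a tendon gene among the markers, had 993 UMIs. The members do not split cleanly into early genes that were measured and later genes that were not. Intervals here cover counting error only.

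Of 8 tested dermomyotome genes, Pax7 and Dmrt2 were at least 2-fold higher in every library, where 0.323% of all genes were. None was lower, where 0.135% of all genes were. The median difference was 0.59, against 0.06 over all genes. With TMM scaling Dmrt2 fell short in the anterior part. Dmrt2, a factor of dermomyotome and early myotome, stood at 102, 158 and 122 CPM against 48.6, 33.0 and 49.1. Pax3 stood at 183, 293 and 200 CPM against 159, 177 and 158 (0.42 ± 0.27), Sim1 at 26.2, 28.6 and 35.7 against 16.0, 15.1 and 21.3, and Eya2, a transcriptional cofactor, at 54.8, 18.6 and 40.7 against 24.0, 13.8 and 14.2. Six4, a homeobox factor of muscle progenitors, differed by -0.06 ± 0.02. Of the myotome list, 1 of 7 genes in the table could be tested: Myf5 had 63 UMIs and Myod1 1 UMI in all Somite B cells, so these muscle determination genes were near 0. Actc1, a cardiac and skeletal actin gene, stood at 11.5, 6.63 and 1.66 CPM.

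Matrix genes differed less as a group than their leading members. Among all genes 0.323% were at least 2-fold higher than in Somite A in every library, and 0.135% lower. Of 9 tested collagens, 0 reached 2-fold in every library, and the median difference was 0.58. In every library 7 were higher by some amount, where 32.9% of all genes were. With TMM scaling 6 were, where 1392 of 9578 genes were. The basement membrane collagens Col4a1 (173, 177 and 210 CPM against 102, 95.3 and 116) and Col4a2 (88.9, 92.3 and 91.4 against 52.5, 48.5 and 56.2) did not overlap between the clusters, and Col1a2, a chain of type I collagen, was low in both at 15.5 to 16.9 CPM against 5.4 to 8.47. Of 12 tested genes of collagen processing, Pcolce alone reached 2-fold, and Serpinh1, the collagen chaperone, was level at 230, 257 and 227 CPM against 265, 253 and 254. Of 7 tested proteases and inhibitors, Fap and Timp3 did, and of 11 elastic fibre and glycoprotein genes 0 did, with Sparc, a secreted matrix protein, uneven at 31.5, 5.47 and 20.8 CPM against 5.64, 3.97 and 8.99. Of 9 tested genes of mesenchyme and its transition, Prrx2 and Twist2 were at least 2-fold lower, while Vim, an intermediate filament of mesenchyme, was at 166, 164 and 174 CPM against 149, 144 and 153.

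Among signalling genes few members reached 2-fold in every library, where 0.323% of all genes did so upwards and 0.135% downwards. In the hedgehog pathway, which induces the sclerotome from the notochord, 0 of 8 tested genes did: Shh had no UMI among 32931210, which allows up to 0.0911 CPM, the target gene Gli1 had 4 UMIs, and the receptor and target Ptch1 stood at 21.7, 22.1 and 34.9 CPM against 20.3, 21.8 and 24.0. Of 9 tested BMP and TGF-beta genes 0 did. Id3, a target of BMP signalling, stood at 99.5, 146 and 49.0 CPM against 29.9, 51.3 and 30.1 and was short of 2-fold in whole replicate 2, and the ligand gene Tgfb2 stood at 106, 68.0 and 121 CPM against 63.4, 45.9 and 61.7. In the FGF list 1 of 8 was lower (Fgf18) and in the retinoic acid list 1 of 7 (Dhrs3). In the Wnt list 1 of 7 was lower (Frzb, a secreted antagonist, at 2.72, 2.56 and 0 CPM against 9.86, 11.1 and 9.33). The value of 0 comes from only 1203239 Somite B UMIs in whole replicate 2. The calls of Frzb and Dhrs3 were lost with a pseudocount of 5 CPM. Crabp1 and Crabp2, which carry retinoic acid in the cell, went opposite ways, at 51.5, 16.6 and 52.4 CPM against 92.5, 25.9 and 115 and at 65.9, 130 and 96.4 against 35.6, 53.8 and 72.7. None of 10 tested Notch and clock genes and none of 4 PDGF genes reached 2-fold, and of 8 insulin-like growth factor genes Igfbp5 alone did. Of 14 cell cycle genes 0 did, and the cyclin gene Ccnd1 stood at 46.2, 66.2 and 98.9 CPM against 83.5, 81.5 and 133.

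Summed markers of the tissues around the somite were close to those in Somite A for some lists and not for others. The intermediate mesoderm list summed to 11.8, 8.03 and 14.1 CPM in Somite B against 22.0, 14.0 and 26.4 in Somite A. It was thus lower in every library, as the neural crest list was, while the lateral plate list was higher in every library. Of 6 tested genes of the presomitic mesoderm and 5 of neuromesodermal progenitors, 0 reached 2-fold against Somite A in either direction, and these lists summed to 74.6 to 142.1 and 88.4 to 133.0 CPM against 89.2 to 152.1 and 94.8 to 139.4. The 6 determination front genes summed to 4.1 to 6.6 CPM, the 10 endoderm genes to 5.8 to 10.0 CPM with Foxa2, Cldn6 and Spink1 at 0, the 7 notochord genes to 2.2 to 6.6 CPM with Noto, Shh and Foxa2 at 0, and the 8 lateral plate genes to 5.8 to 8.3 CPM with Hand1, Hand2, Gata4 and Tbx5 at 0. In Somite A the same lists summed to 4.6 to 7.8, 4.5 to 6.9, 1.8 to 4.5 and 3.6 to 4.5 CPM. The neural crest list summed to 28.4 to 64.8 CPM against 53.1 to 95.7 in Somite A, with Sox10, Foxd3 and Tfap2b at 0, and the spinal cord list to 186 to 306 CPM against 210 to 264, most of it Ncam1, with Olig2 at 0. The cardiac list summed to 18.0, 4.4 and 2.5 CPM against 2.8 to 4.0, with Myl7, Gata4 and Tbx5 at 0, and nearly all of it was Tnnt2, a troponin gene of heart and early muscle, at 17.5, 2.91 and 2.49 CPM. The endothelial list summed to 23.3 to 34.7 CPM against 28.5 to 31.3. In the anterior part 7 of 1757 Somite B cells held UMIs of 3 or more of 6 endothelial markers, against 0 in the other 2 libraries and in Somite A, and their part in the levels above was not tested.

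The later Hox genes differed both between the libraries and between the clusters. Of 12 tested genes of paralog groups 5 to 9, 6 were lower than in Somite A in every library by some amount, where 12.5% of all genes were. The median difference was -0.59, and -1.18, -0.11 and -0.14 by library. The list summed to 122, 551 and 450 CPM against 358, 814 and 589. Of 23 tested Hox genes, Hoxb9 and Hoxa7 were at least 2-fold lower than in Somite A in every library (0.135% of all genes). None was higher (0.323% of all genes). Hoxa7 was no longer called with a pseudocount of 5 CPM or in G1 cells alone. Hoxb9 stood at 5.96, 76.1 and 46.5 CPM against 63.0, 172 and 112, and Hoxa7 at 8.17, 74.4 and 52.4 against 85.4, 161 and 108, so Somite B of the anterior part was the lowest of the 6 sums for both. Hoxb1, of the first paralog group, was also lower in each library, at 3.16, 12.9 and 4.99 CPM against 11.2, 21.6 and 23.3, short of 2-fold in whole replicate 1.

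**Figure D4:**
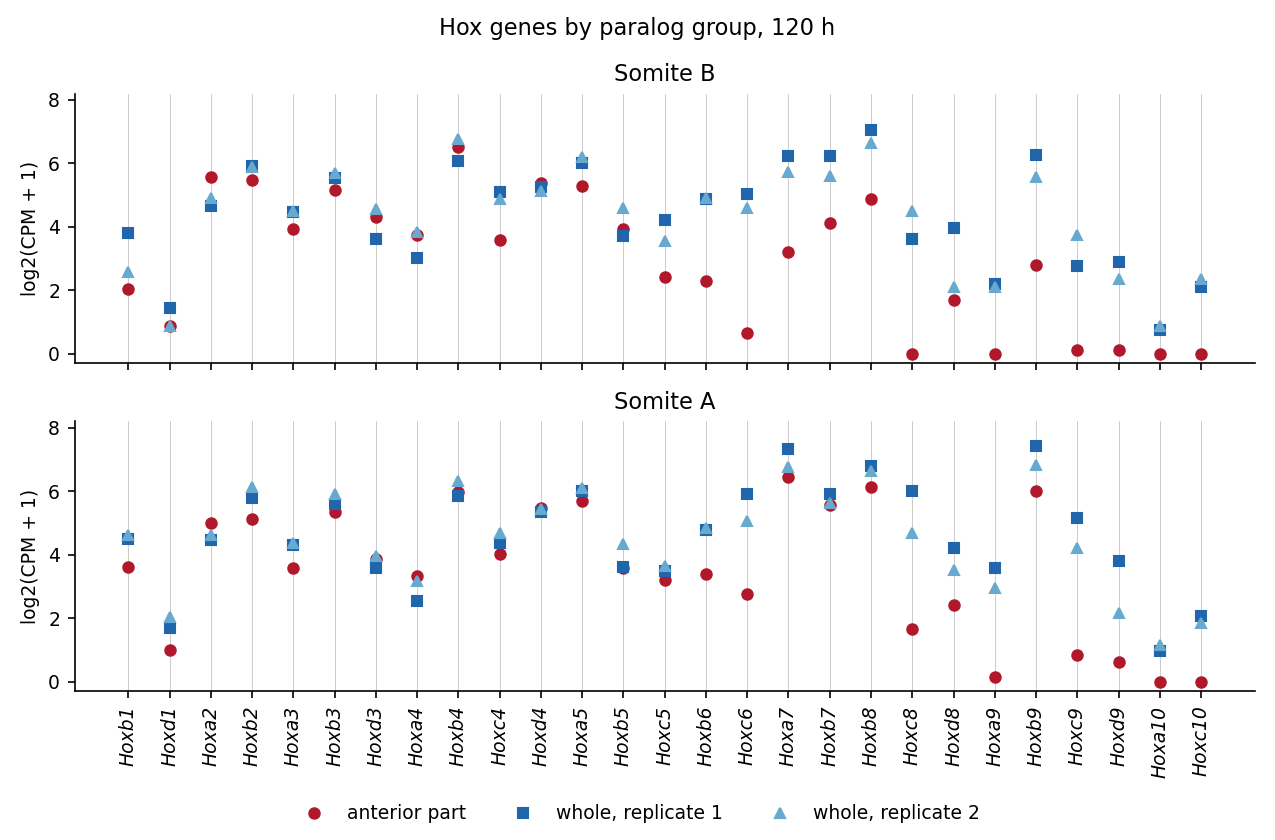
Level in log2(CPM + 1) (y axis) of Hox genes that reached 10 CPM in a paraxial cluster, ordered by paralog group (x axis), in Somite B (top) and Somite A (bottom), with 1 point per library. In Somite B nearly all anterior part points from Hoxc5 on lie below both whole libraries, as Hoxc8 does at 0 CPM against 11.2 and 21.6, while most genes of groups 1 to 4 lie close together.

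Set against the whole stembryos, a comparison chosen after the values were seen, Somite B of the anterior part had lower levels of most later Hox genes. Of 12 tested genes of paralog groups 5 to 9, 9 were at least 2-fold lower in the anterior part than in both whole libraries, where 175 of 9726 genes were (1.8%), and 0 were higher (0.288% of all). Hoxa5 and Hoxb5, at 38.4 and 14.1 CPM in the anterior part, were not among them. The 9 were Hoxa7, Hoxb6, Hoxb7, Hoxb8, Hoxb9, Hoxc5, Hoxc6, Hoxc8 and Hoxc9. Hoxc8 had 0 UMIs in the anterior part and stood at 11.2 and 21.6 CPM in the whole libraries, and Hoxb8 stood at 28.2, 132 and 98.9 CPM. The filter of a mean of at least 5 CPM was taken over the 3 libraries together. A gene near 0 in the anterior part, such as Hoxc8, passed it through the whole libraries alone and could only be called lower. The 9 of 12 is therefore a description. Of 11 tested genes of groups 1 to 4, Hoxc4 alone was lower, at 11.1, 32.9 and 28.3 CPM, while Hoxb4 was level at 91.4, 66.3 and 108 CPM. Groups 10 to 13 had no gene that could be tested and summed to 0, 4.5 and 5.8 CPM.

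In Somite A of the same libraries, 7 of 14 tested genes of groups 5 to 9 were lower in the anterior part (1.45% of 9494 genes). In groups 1 to 4, 0 of 11 were, and 0 were higher (0.0527% of all). The 7 were Hoxa9, Hoxb6, Hoxc6, Hoxc8, Hoxc9, Hoxd8 and Hoxd9. Hoxa9 and Hoxd9 were below the filter in Somite B. Hoxa7, Hoxb7, Hoxb8, Hoxb9 and Hoxc5 were called in Somite B alone and were lower in Somite A by less. Hoxa7 differed by -3.04 and -2.54 from the whole libraries in Somite B and by -0.91 and -0.33 in Somite A. In Somite A Hoxc8 stood at 2.19, 63.9 and 24.7 CPM and Hoxb8 at 68.8, 110 and 99.2. The cut, the batch and the stembryos themselves all differed between the anterior part and the whole libraries and cannot be told apart. Between the 2 whole libraries, 96 genes (0.987%) were at least 2-fold higher in Somite B of replicate 1 and 372 (3.82%) at least 2-fold lower, against 0.263% and 1.58% in Somite A. Uncx, which marks the caudal side of each somite, followed the later Hox genes, at 82.3, 319 and 249 CPM in Somite B and 129, 249 and 206 CPM in Somite A. Gene models of Hoxc5 with Hoxc6, Hoxc8 and Hoxc9, and of Hoxd3 with Hoxd4, overlap on 1 strand, so their counts are uncertain.

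Single cells of Somite B were compared after each was thinned to 5000 UMIs, which left out 8, 0 and 15 cells. Fap was detected in 31.7%, 18.8% and 25.9% of them, Meox2 in 30.4%, 33.1% and 26.8% and Pax1 in 27.6%, 8.32% and 22.3%, against 56.7%, 46.8% and 42.5%, 55%, 64.8% and 46.5%, and 42.7%, 15.1% and 27.6% without thinning. In NMPs C (neuromesodermal progenitors) and the 2 spinal cord clusters of the whole libraries, which should lack them, thinned shares were at most 0.83% for Fap, 3.32% for Meox2 and 0.83% for Pax1. The 3 markers were thus detected in Somite B above the shares of clusters that should lack them, and each in a minority of its cells at this depth.

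Cells with and without a UMI of Pax1 differed in Dmrt2 and Pax3, and in Uncx, which is not a dermomyotome gene, in the anterior part. There Dmrt2 was detected in 115 of 482 cells with Pax1 (23.9%, 20.1 to 27.9) and in 501 of 1267 without it (39.5%, 36.8 to 42.3), and Pax3 in 42.3% (37.9 to 46.9) and 60.7% (57.9 to 63.4). In whole replicate 1 Dmrt2 was detected in 14 of 43 cells with Pax1 (32.6%, 19.1 to 48.5) and 52.7% without it (48.1 to 57.3), and in whole replicate 2 in 7 of 25 (28.0%, 12.1 to 49.4) and 41.4% (30.9 to 52.4). Pax3 went the same way in the whole libraries, at 65.1% and 74.3% in replicate 1 and 52.0% and 63.2% in replicate 2. The direction was shared by the 3 libraries for both genes, but in the whole libraries the intervals overlapped. Pax7, by contrast, was detected in 8.30% and 10.0% of cells with and without Pax1 in the anterior part and in 9.30% and 7.81% in whole replicate 1, within the intervals and in the other direction at 3000 UMIs or without thinning (-4.75 and -5.29 percentage points). Uncx was detected in 24.3% (20.5 to 28.4) of anterior part cells with Pax1 and 31.6% (29.0 to 34.2) without it. In whole replicate 1 the shares were 69.8% and 65.4%, the other way, and in whole replicate 2 56.0% and 62.1%.

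Detection of Spon1 and Scx beside Pax1 depended on the depth. Spon1 was detected in 26.1% of cells with Pax1 and 16.1% of those without it in the anterior part, in 14.0% and 2.95% in whole replicate 1, and in 16.0% and 16.1% in whole replicate 2. At 3000 UMIs the difference in the anterior part was 5.4 percentage points in place of 10.0. Scx was detected in 29.5% and 22.9%, 30.2% and 13.7%, and 32.0% and 23.0% in the same order, but at 3000 UMIs in 15.6% and 15.2% of the cells of the anterior part, so no difference was detectable there. Cells with Dmrt2 held Pax3 in 62.2% and cells without it in 52.1% in the anterior part, and in 69.8% and 55.1% in whole replicate 2. In whole replicate 1 the shares were 77.7% and 69.2%, and at 3000 UMIs 53.7% and 55.2%, the other way.

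**Figure D5:**
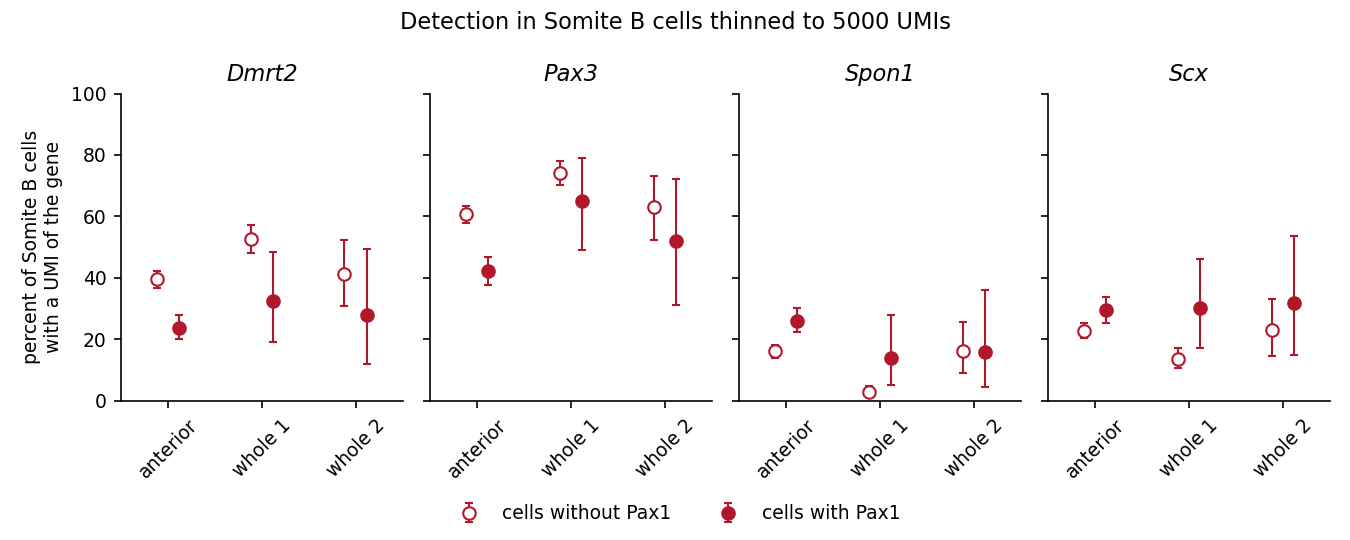
Percent of Somite B cells thinned to 5000 UMIs with a UMI of each gene (y axis), in cells without (open) and with (filled) a UMI of Pax1, by library (x axis), with exact 95% binomial intervals. Dmrt2 and Pax3 are lower in cells with Pax1 in all 3 libraries, with intervals that do not overlap in the anterior part (23.9% against 39.5% and 42.3% against 60.7%), and Scx is higher at this depth.

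For the later Hox genes, Hoxa7 was detected at 5000 UMIs in 13 of the 45 anterior part cells with Hoxb9 (28.9%, 16.4 to 44.3) and in 2.58% (1.88 to 3.45) of the 1704 without it, in 40.6% and 26.9% in whole replicate 1, and in 47.1% and 16.8% in whole replicate 2. At 3000 UMIs this was not kept: the shares were 5.0% (1 of 20 cells) and 1.84% in the anterior part, 24.5% and 19.6% in whole replicate 1, and 10.5% and 12.0% in whole replicate 2. These shares describe cells within 1 library, which are not replicates, and have no test.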

How the data were processed

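Stembryo cells were profiled by 10x Genomics single-cell RNA-seq. The authors aligned and counted reads with Cell Ranger 6.0 on mm10 and filtered, merged and clustered cells with Seurat 4.0.2, removing barcodes of few genes, of very low or high UMI totals or of extreme mitochondrial share; high UMI totals served as the limit against doublets, and no doublet caller was run here. The deposited table holds raw UMI counts of 25595 genes in 26968 cells, and every cell's total matched the deposited annotation, which also gives the mitochondrial percent and cell cycle scores that the authors computed. Clusters had been built from the same counts, with cell cycle and mitochondrial share regressed out. There were 0 columns of per-sample values left unused.

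Counts were summed over the cells of a Fate in a library (at least 50 cells), scaled to CPM and compared as log2(CPM + 1) within the library. Genes with a mean of at least 5 CPM over the sums compared were kept, and a gene was counted when it differed at least 2-fold in 1 direction in every library. Replicate libraries are pools, so SDs measure the spread between 3 libraries. Spearman's rho, exact binomial and Poisson intervals (95%) and thinning (random seed 7) used Python 3.11.15, numpy 2.4.6, scipy 1.17.1 and pandas 2.3.3; TMM factors came from edgeR 4.0.16 in R 4.3.3. The comparison code was tested on simulated data. Genes named were the given markers, the 12 most raised and 8 most lowered against Somite A and 10 most raised against all other cells among genes of at least 20 CPM, Hox genes of at least 10 CPM and leading members of each list. The members, lists and comparisons were chosen with earlier results of these data known. Alternatives were another scaling, pseudocount, filter, fold, cell selection and weighting, pooling of the 2 parts and leaving out each library. Columns of the annotation not described here were not used. A few genes that the rule names are not reported here.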

Additional observations from a re-analysis of the deposited data

Results flagged for a closer look

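In 3 Hox genes the difference between Somite B and Somite A was of 1 sign in the anterior part and of the other sign in both whole libraries. Hoxb6 was lower in Somite B of the anterior part (-1.10 on the log2 scale) and level in whole replicates 1 and 2 (0.08 and 0.08). Hoxa5 differed by -0.40 in the anterior part and by 0.01 and 0.11 in the whole libraries. Hoxc4 differed by -0.42 in the anterior part and by 0.71 and 0.20 in the whole libraries. With TMM scaling the opposite sign in both whole libraries was lost in all 3 genes. Whole replicate 2 then gave -0.12 for Hoxb6, -0.09 for Hoxa5 and -0.01 for Hoxc4. Whole replicate 1 gave -0.04 for Hoxa5 but kept the opposite sign for Hoxc4 (0.66 against -0.50 in the anterior part). For Hoxb6 whole replicate 1 stayed close to 0 (0.03 against -1.17 in the anterior part). These differences between libraries were not tested, and in Hoxa5 and Hoxb6 the whole libraries were close to 0.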

How the results depend on the processing

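No paired analysis was possible because the 96 h libraries that share replicate numbers with the whole libraries at 120 h held 0 and 1 Somite B cells; differences from Somite A and from all other cells were already taken within a library. The planned comparison of Somite B between the anterior and the posterior part and its alternatives were not run, since the posterior part held 1 such cell, and leaving out the posterior part could give no value because it entered no comparison. Counts of genes are given in the order higher than Somite A, lower than Somite A, higher than all other cells, lower than all other cells and above every other Fate, where the values reported were 31, 13, 57, 39 and 16. A pseudocount of 5 CPM gave 13, 5, 30, 13 and 7, and one of 0.1 CPM gave 67 genes lower than all other cells. With no filter there were 47 higher than Somite A, 90 higher than all other cells and 33 above every other Fate, and with a mean of at least 20 CPM 11, 6, 23, 19 and 4. A fold of at least 1.5 gave 100, 40, 172, 115 and 48. Cells in G1 alone, from 2 libraries since whole replicate 2 had under 50 such cells, gave 54, 24 and 89 for the first 3. Summing the 2 parts gave 163 and 180 against all other cells. TMM factors gave 23, 16 and 10 for the first, second and last, and the 23 and 13 of the 16 were among the genes reported. Leaving out 1 library gave 40 to 50, 16 to 21, 66 to 166, 43 to 190 and 14 to 27, with the highest values without whole replicate 1 for the first, second and last (50, 21 and 27) and without the anterior part for those against all other cells (166 and 190); 20 genes were lower than Somite A without the anterior part. Dmrt2 in cells with minus without Pax1 was -12.2, -10.8 and -26.6 percentage points when cells were thinned to 3000 UMIs (anterior part, whole replicates 1 and 2; -15.7, -20.2 and -13.4 as reported) and -12.1 in whole replicate 1 with no thinning. Pax3 was -8.16 and -21.8 at 3000 UMIs in the anterior part and whole replicate 2 (-18.4 and -11.2) and -13.2 in the anterior part with no thinning. Pax7 in cells with minus without Pax1 in whole replicate 1 turned from 1.5 to -4.75 at 3000 UMIs and -5.29 with no thinning, and Spon1 in whole replicate 2 from -0.092 to 11.9 with no thinning. Scx was 0.429, 7.64 and 2.04 at 3000 UMIs (6.57, 16.5 and 9.01 as reported) and 30.4 and 23.9 in the whole libraries with no thinning. Pax3 in cells with minus without Dmrt2 was 6.65 in the anterior part and -1.51 in whole replicate 1 at 3000 UMIs (10.1 and 8.48) and 15.5 and 25.2 in the anterior part and whole replicate 2 with no thinning (10.1 and 14.7). Hoxa7 in cells with minus without Hoxb9 was 3.16, 4.85 and -1.51 at 3000 UMIs (26.3, 13.7 and 30.2). The cause was not tested. The Somite B shares stayed within their intervals. Of 45 genes named, 19 moved by over 1 SD under some alternative and 0 of those at least 2-fold changed sign. Depth limits whole replicate 2, where Somite B was 127 cells.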
